A study of Mus musculus with 3 samples.

Results

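The genes described are 9 members of the Hedgehog and Notch signalling pathways, namely Shh, Ptch1, Gli1 and Gli3, and Notch1, Notch2, Jag1, Jag2 and Dll1. All probe sets that the array's annotation assigned to 1 of these symbols were taken. They were 12 of 12422 probe sets other than controls and represented 8 genes of 8251. Jag1 had no probe set under its symbol and was not analysed here. Ptch1, Notch1, Notch2 and Dll1 had a pair of probe sets each, and the other 4 genes had 1.

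The study followed the medial edge epithelium of the secondary palate of the mouse, the sheet of cells at the shelf tips that becomes a seam once the shelves touch. The embryos were of the CF-1 stock at ED13.5, an embryonic day shortly before palate closure. At 0 h the epithelium was unfused and had not been cultured. At 12 h it was fused, after shelves had been held together in culture for 12 h from first contact. At 24 h it was fused and described as undergoing epithelial-mesenchymal transformation. Each time point had 1 array, the epithelium was freed with Dispase II in all 3, and how many embryos an array stands for was not given in the sources used here. Fusion, time and culture cannot be told apart in comparisons with 0 h, and no ratio below has a replicate, an error or a p-value.

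In Hedgehog signalling a secreted ligand binds Patched, which releases Smoothened from repression and lets Gli transcription factors act on target genes. Ptch1 and Gli1 are themselves targets of the pathway and are widely read as measures of its activity. In the palate Shh is known as an epithelial ligand to which the underlying mesenchyme responds. In Notch signalling a ligand of the Jagged or Delta-like family on 1 cell binds a Notch receptor on the next, the receptor is cut, and its intracellular part joins Rbpj on Hes and Hey genes. Loss of Jag2 in the mouse is known to cause palatal shelves to adhere to the tongue and to leave the palate cleft.

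The deposited signals had a 2% trimmed mean of 93.7, 58.1 and 46.8 at 0, 12 and 24 h, and all arrays were brought to 1 trimmed mean before comparison. A floor was set at a scaled signal of 13.53, the pooled 40th percentile, below which signals were given no ratio among themselves. The summed signal of 19 epithelial markers was 1678, 3205 and 3736 at 0, 12 and 24 h, and 16, 12 and 15 of them lay above the floor. By mean signal over the arrays that sum was led by Krt6a, Dsp and Perp. Gene by gene 6 were higher and 3 lower by 2-fold or more at 12 h over 0 h, with a median log2 ratio of -0.06. The sets of Krt6a disagreed there, 3.40-fold higher by the brightest and 2.27-fold lower by 104370_s_at. By their brightest sets Krt5, Krt14 and Krt15, keratins of the basal layer of stratified epithelia, were at or below the floor on all 3 arrays. Krt8, Krt17, Krt18 and Krt19 were above it on each. Other sets of Krt18 (162191_at) and Krt19 (102121_f_at) were under the floor on all 3 arrays, and 1 of Krt17 (161496_r_at) at 12 h. Trp63, also on the list, was above it throughout, with 75.9, 230 and 67.4 at 0, 12 and 24 h. These keratins, and the other markers named here, were picked for mention after their values were seen. The summed signal of 19 mesenchymal markers was 6469, 12250 and 11512 at 0, 12 and 24 h, with 19, 15 and 17 above the floor. It was led in the same way by Col1a2, Lum, Postn and Twist1, and gene by gene 8 were higher and 7 lower by 2-fold or more at 12 h over 0 h, with a median log2 ratio of -0.08. Among the lower ones were Mfap2, by 37.8-fold, and Twist2, by 12.1-fold. The sets of Col1a2 disagreed at 12 h over 0 h, 5.91-fold higher by the brightest and 2.31-fold lower by 161156_r_at. A labelled epithelium thus carried mesenchymal marker RNA on every array. Endothelial markers summed to 483, 675 and 757, and markers of blood cells and macrophages to 6551, 1716 and 1794. The last sum was led at 0 h by the globins Hbb-y, Hba-a1 and Hba-x (3158, 2407 and 753). The leukocyte markers on that list were mixed. Ptprc, Adgre1, Lyz2 and Fcer1g were at or below the floor on all 3 arrays. By their brightest sets Csf1r (35.5, 25.5 and 28.9 at 0, 12 and 24 h), Cd68 (34.7, 16.5 and 48.3) and Tyrobp (34.3, 24.3 and 29.7) were above it on each. Cd14 was also above it on each, and was 2.82-fold higher at 24 h than at 0 h. In such bulk samples fewer cells of a type and less RNA per cell cannot be told apart. The signal ratio of 3' to 5' control probe sets for Gapdh was 0.828, 14.9 and 12.6 at 0, 12 and 24 h, and that for Actb 1.02, 11.9 and 2.97. The part of these differences in the ratios below was not tested.

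**Figure D1:**
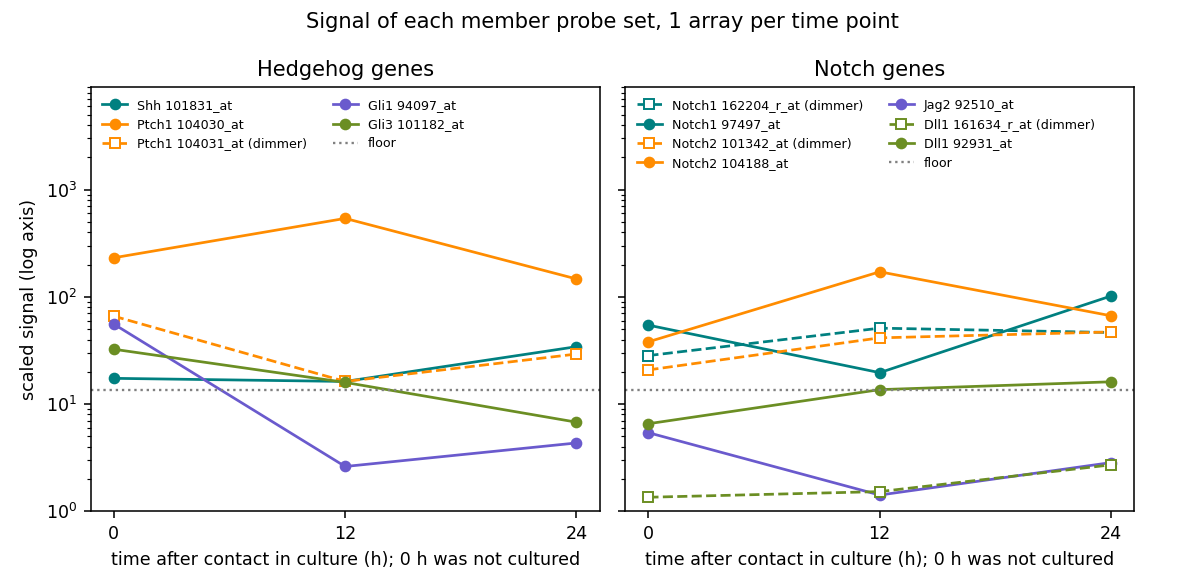
Scaled signal (log axis) of every member probe set at 0, 12 and 24 h, with Hedgehog genes on the left and Notch genes on the right; each point is 1 array, filled circles are the brightest probe set of a gene, open squares the dimmer one, and the dotted line is the floor of 13.53. The Ptch1 pair and the Notch1 pair cross in direction at 12 h, and Jag2 stays under the floor on all 3 arrays.

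Among the Hedgehog members, the ligand Shh was near the floor before contact and at 12 h. Its scaled signal was 17.4, 16.3 and 34.3 at 0, 12 and 24 h. The 24 h value was the high one, 2.11-fold above 12 h and 1.97-fold above 0 h. Relative to the array itself, 42.0% of probe sets had a lower signal than Shh at 0 h, 46.7% at 12 h and 58.7% at 24 h. The direction against 0 h depended on the scaling. The deposited signals of Shh were 25.7, 14.9 and 25.3 at 0, 12 and 24 h, which gives a log2 ratio of -0.02 for 24 h over 0 h, against 0.98 after scaling and 1.15 after centring arrays on the median. For 12 h over 0 h the log2 ratio was -0.10 after scaling, -0.79 as deposited and 0.36 after median centring.

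Ptch1, which encodes the Hedgehog receptor, gave opposite answers at 12 h from its 2 probe sets. Probe set 104030_at had scaled signals of 231, 539 and 147 at 0, 12 and 24 h. By this brighter set 12 h was the highest time point, 2.33-fold above 0 h, and 24 h was 3.67-fold below 12 h. Probe set 104031_at had 66.0 at 0 h, 16.3 at 12 h and 29.3 at 24 h. By that set 12 h was the lowest time point, 4.06-fold below 0 h, and 24 h was 1.80-fold above 12 h. Both sets were lower at 24 h than at 0 h, by 1.58-fold and 2.25-fold, and this direction held under all 8 alternatives that could be applied to the ratio. The mean over both sets gave a log2 ratio of -0.40 for 12 h over 0 h.

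Gli1, a transcriptional activator and target of the pathway, was present above the floor before culture alone. Its scaled signal was 55.7, 2.62 and 4.34 at 0, 12 and 24 h. Both cultured arrays lay under the floor, so 12 h and 24 h were each at least 4.11-fold lower than 0 h and have no ratio between them. Of all probe sets, 66.6% had a lower signal than Gli1 at 0 h, 14.4% at 12 h and 19.6% at 24 h. The bound follows the floor: with the floor at the 60th percentile, a signal of 35.1, it was a log2 ratio of -0.66, and with a floor at the 20th percentile -3.73 for 12 h over 0 h.

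Gli3, the family member best known as a repressor when the ligand is absent, was highest at 0 h and lowest at 24 h. It had scaled signals of 32.5, 15.9 and 6.78 at 0, 12 and 24 h. At 12 h it was 2.04-fold lower than at 0 h, only just past 2-fold, and the log2 ratio of -1.03 was -0.57 after median centring. At 24 h it was under the floor, at least 2.40-fold lower than at 0 h. By the brightest sets after scaling, Gli1 and Gli3 were thus the 2 members lower by 2-fold or more at 24 h than at 0 h. Of all genes 17.7% were. The dimmer set of Ptch1 was also lower by that size, 2.25-fold. With the deposited signals 3 of 6 members were, beside 49.3% of 6574 genes.

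Of the Notch ligands, neither measured gene gave a clear signal. Jag2, the Jagged ligand needed for palate development, had scaled signals of 5.41, 1.42 and 2.85 at 0, 12 and 24 h. All 3 were under the floor and gave no ratio. Dll1, a Delta-like ligand, had 6.56 at 0 h, 13.6 at 12 h and 16.1 at 24 h by its brighter set, 92931_at. The 12 h and 24 h values lay just above the floor and the 0 h value under it, so the ratios against 0 h are bounds of at least 1.01-fold and 1.19-fold. Its other set, 161634_r_at, stayed between 1.35 and 2.71.

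Notch1, a Notch receptor, also gave opposite directions at 12 h from its 2 probe sets. Probe set 97497_at had scaled signals of 54.4, 19.6 and 102 at 0, 12 and 24 h. By this set 12 h was the lowest time point, 2.77-fold below 0 h, and 24 h was 5.19-fold above 12 h. Probe set 162204_r_at, whose name carries a suffix before _at, had 28.3 at 0 h, 51.0 at 12 h and 46.5 at 24 h. By that set 12 h was 1.80-fold above 0 h, and the log2 ratio of 24 h over 12 h was -0.13. For 24 h over 0 h the sets gave log2 ratios of 0.90 and 0.71, while the deposited signals of the brighter set gave -0.10.

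Notch2, a second Notch receptor, was higher at 12 h than at 0 h by both of its probe sets. Probe set 104188_at had scaled signals of 38.1, 171 and 66.6 at 0, 12 and 24 h. By this set 12 h was 4.50-fold above 0 h, and 24 h was 2.57-fold below 12 h. Probe set 101342_at had 20.8 at 0 h, 41.4 at 12 h and 47.0 at 24 h, so 12 h was 1.99-fold above 0 h and 24 h was 1.13-fold above 12 h. For 12 h over 0 h the brighter set stayed between log2 ratios of 1.48 and 2.62 under the alternatives, the lowest from the deposited signals. For 24 h over 0 h the sets gave 0.81 and 1.18, and the deposited signals of the brighter set -0.20.

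**Figure D2:**
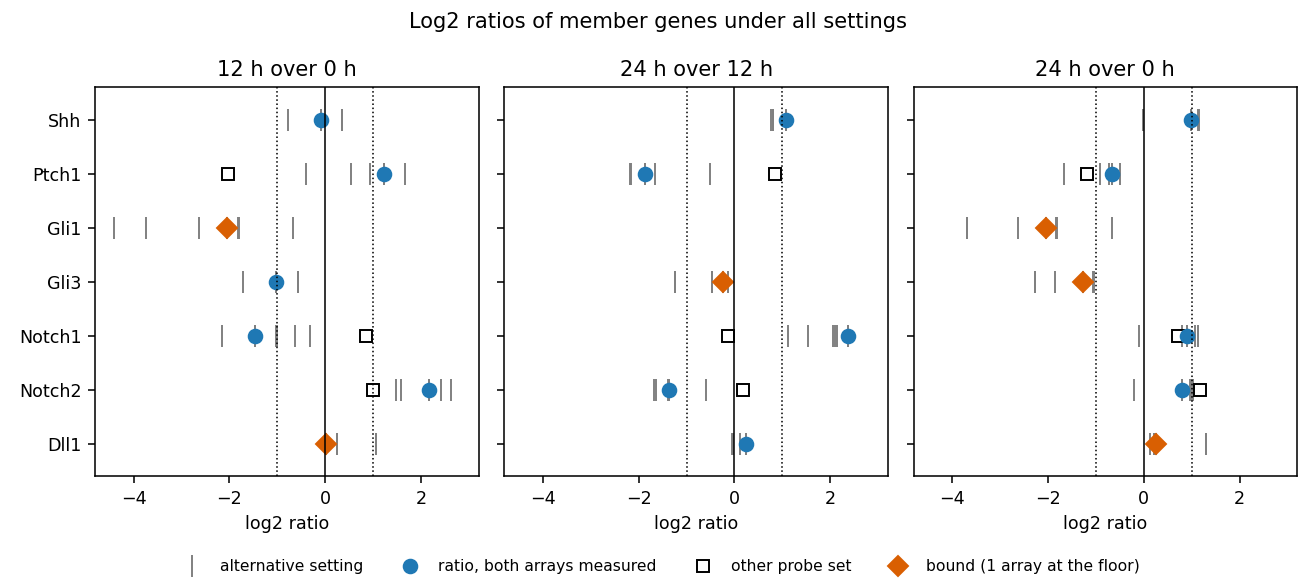
Log2 ratios (horizontal axis) of the 7 member genes with a ratio, in 3 panels, 1 per comparison; filled circles are ratios measured on both arrays, diamonds are bounds with 1 array at the floor, grey ticks are alternative settings, open squares the gene's other probe set, and dotted lines mark 2-fold. The other sets of Ptch1 and Notch1 lie across 0 from the filled circles in the comparisons that use the 12 h array, and beside them for 24 h over 0 h.

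Of the 3 genes with a second set above the floor on all arrays, Ptch1 and Notch1 had sets that differed in direction where the 12 h array entered and shared a direction where it did not. The sets of Notch2 shared a direction at 12 h over 0 h and parted at 24 h over 12 h. For 12 h over 0 h the 2 sets of Ptch1, Notch1 and Notch2 differed by 3.24, 2.32 and 1.18 on the log2 scale, against a median gap of 1.13 over 672 genes with several measured sets. For 24 h over 12 h the gaps were 2.72, 2.51 and 1.55, against a median of 0.85 over 687 genes. For 24 h over 0 h they were 0.52, 0.19 and 0.37, against a median of 0.93 over 748 genes. The SD of 1 probe set's log2 ratio about its gene's mean was 1.24, 0.82 and 1.07 in these comparisons. That SD also holds real differences between transcripts, and it is not an error between samples.

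Counted by the brightest set, 2 of 7 members with a ratio were higher by 2-fold or more at 12 h than at 0 h (Ptch1 and Notch2), where 17.7% of 6379 genes were. Members lower by 2-fold or more numbered 3 (Gli1, Gli3 and Notch1), where 27.3% of genes were. At 24 h over 12 h, 2 of 6 were higher by that size (Shh and Notch1), beside 18.8% of 6141 genes, and 2 lower (Ptch1 and Notch2), beside 12.0%. At 24 h over 0 h, 0 of 7 were higher and 2 lower by that size, beside 14.5% and 17.7% of 6392 genes. By a 3-fold rule, 1 member was higher and 1 lower at 12 h than at 0 h, beside 9.56% and 15.2% of genes. By the same rule the counts were 1 and 1 at the second step, beside 7.41% and 4.58%, and 0 and 1 at 24 h over 0 h, beside 6.63% and 7.76%. With so few members these counts cannot be set apart from the shares over all genes. The members' median log2 ratios were -0.10, 0.00 and 0.25 in the 3 comparisons, with bounds taken at their value, and those of all genes -0.21, 0.17 and -0.08. The comparisons share arrays: the 12 h array is the numerator of the first and the denominator of the second.

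Scaling set how these shares split. Of all genes past 2-fold, 39.3%, 61.1% and 45.0% were higher in the 3 comparisons. That share was 16.8%, 39.4% and 8.36% with the deposited signals, 58.7%, 42.1% and 55.5% after median centring, and 51.1%, 50.8% and 51.4% after quantile normalization. The median log2 ratio over all genes moved to -0.83, -0.12 and -0.98 with the deposited signals and to 0.18, -0.09 and 0.08 after median centring.

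**Figure D3:**
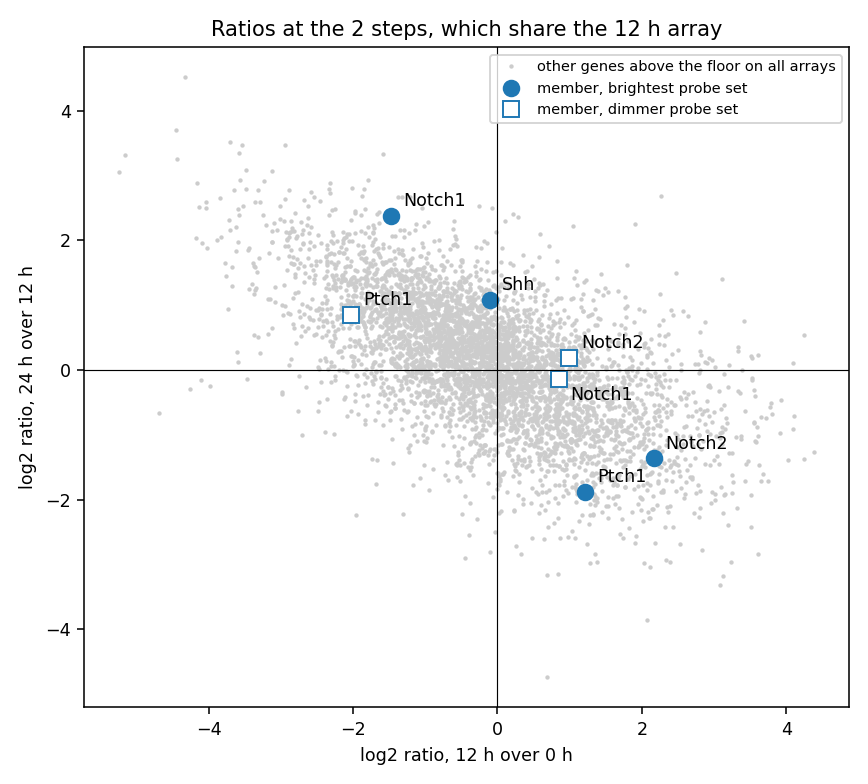
Log2 ratio of 12 h over 0 h (horizontal) against that of 24 h over 12 h (vertical) for genes above the floor on all 3 arrays (grey points) and for member probe sets (filled circles brightest, open squares dimmer). Both axes use the 12 h array, as numerator in 1 and denominator in the other; Ptch1 and Notch2 lie at the lower right and Notch1 at the upper left by their brightest sets, and the dimmer set of Ptch1 lies on the opposite side.

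Ptch1, Notch2 and Notch1 were the members with a measured ratio of at least 2-fold at both steps by their brightest sets, the first 2 highest and the last lowest at 12 h. Their upstream sequences are shown for that reason, from RefSeq (build GRCm38.p6), as the 250 bases before an annotated start, 5' to 3' on the gene's strand, with each match to the GC box GGGCGG on either strand in capitals. The Ptch1 window is chr13:63565736-63565985 on the minus strand and lies inside the span of the gene, whose annotated end on that strand's start side is 63573460. The Notch2 window is chr3:98013288-98013537 on the plus strand, and the Notch1 window is chr2:26503823-26504072 on the minus strand.
Ptch1: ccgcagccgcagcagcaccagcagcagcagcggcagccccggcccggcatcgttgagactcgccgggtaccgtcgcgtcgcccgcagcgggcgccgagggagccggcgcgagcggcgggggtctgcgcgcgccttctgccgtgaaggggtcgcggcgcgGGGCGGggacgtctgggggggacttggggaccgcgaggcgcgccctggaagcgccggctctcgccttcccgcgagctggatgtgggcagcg
Notch2: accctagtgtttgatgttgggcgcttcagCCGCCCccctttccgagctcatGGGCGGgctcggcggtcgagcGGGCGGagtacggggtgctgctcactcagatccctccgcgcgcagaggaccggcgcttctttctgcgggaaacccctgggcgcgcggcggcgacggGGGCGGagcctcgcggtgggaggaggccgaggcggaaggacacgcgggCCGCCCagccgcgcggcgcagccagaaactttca
Notch1: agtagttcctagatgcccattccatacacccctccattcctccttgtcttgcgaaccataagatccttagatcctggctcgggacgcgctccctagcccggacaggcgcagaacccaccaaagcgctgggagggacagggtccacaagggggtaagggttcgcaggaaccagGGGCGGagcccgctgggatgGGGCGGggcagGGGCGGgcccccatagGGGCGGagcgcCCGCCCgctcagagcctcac
The windows held 1 GC box match for Ptch1 and 5 each for Notch2 and Notch1, and 32.7% of 32851 promoter windows of the same length held at least 1. Their GC contents were 78.4%, 72.0% and 66.0%, against a median of 52.4% over those windows. Windows were at hand for 7 members, 8 windows in all. None of the 8 held GACCACCCA, the consensus bound by Gli factors, on either strand, which 0.225% of all windows held, or TGGGAA, the core bound by Rbpj, which 21.6% held. The absence of a match says only that these letters are not in this window.

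The nearest other gene to each member by its pair of log2 ratios was looked for among 4681 other genes above the floor on all 3 arrays. It was Nomo1 for Shh (Euclidean distance 0.0019), Nedd1 for Ptch1 (0.025), Slc38a10 for Notch1 (0.055) and Acadm for Notch2 (0.080). Within a distance of 0.25 lay 62, 25, 5 and 24 genes. With 3 arrays a pattern is 2 numbers, so closeness of this kind is common.

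The other core genes of the Hedgehog pathway were followed in the same way, on a list of 10 with 6 on the array. Cdon, a co-receptor, was under the floor on all 3 arrays. Of the 5 with a ratio at 12 h over 0 h, 1 was higher and 1 lower by 2-fold or more, beside the same shares of 17.7% and 27.3% over all genes. The higher one was Gas1, a co-receptor at the cell surface, with scaled signals of 329, 1011 and 1097 at 0, 12 and 24 h. These were 3.07-fold and 3.33-fold above 0 h at 12 h and 24 h. With the deposited signals the log2 ratios of Gas1 were 0.93 and 0.73, under 2-fold. The lower one was Smo, the signal transducer repressed by Patched, with 112, 46.4 and 110 at 0, 12 and 24 h. Smo was 2.42-fold lower at 12 h than at 0 h and 2.36-fold higher at 24 h than at 12 h. At that second step it was the 1 of 5 core genes at least 2-fold higher, and 0 were lower. Of all genes 18.8% were higher and 12.0% lower by that size. With median centring neither ratio of Smo reached 2-fold, the first did not with quantile normalization, and the second did not with the deposited signals.

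Gli2, the main activator among the Gli factors, had signals of 26.0, 3.71 and 15.3 at 0, 12 and 24 h. Like Gli1 and Gli3 it was highest at 0 h, and 12 h was at least 1.92-fold lower. The ligand Ihh had 25.8, 28.9 and 45.3 at 0, 12 and 24 h, with 24 h the highest and no ratio past 2-fold. The ligand Dhh had 53.2, 46.6 and 55.4 by its brightest set, 161111_f_at, whose suffix marks possible cross-hybridization. Another set, 99861_at, gave 20.4, 46.9 and 75.2, which is 2.30-fold above 0 h at 12 h and 3.68-fold at 24 h. A further set, 161588_r_at, was under the floor on all 3 arrays. Without sets of such suffixes 2 core genes, in place of 1, were at least 2-fold higher than at 0 h at 12 h, and likewise at 24 h. The core list had median log2 ratios of -0.19, 0.25 and 0.06 in the 3 comparisons.

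Of 10 measured genes of cilia, kinases and degradation that act on the pathway, 1 was higher and 3 lower by 2-fold or more at 12 h over 0 h, beside 17.7% and 27.3% of all genes. At 24 h over 12 h 2 were higher and 0 lower by that size, beside 18.8% and 12.0%, and with 10 genes such counts cannot be set apart from those shares. The brightest was Csnk1a1, a kinase that acts on Smoothened and Gli proteins, with 431, 1825 and 1748 at 0, 12 and 24 h. Its other set had 306, 1591 and 406, which gives log2 ratios of 2.08 and 2.38 for 12 h over 0 h by the 2 sets, and of -0.06 and -1.97 for 24 h over 12 h. The kinase Gsk3a had 1118, 520 and 913, 2.15-fold lower at 12 h than at 0 h. Ift88, a protein of ciliary transport, had 355, 268 and 426 and stayed within 2-fold.

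Genes known to work with Hedgehog signals in the palate numbered 13 on the array, and 10 had a ratio. At 12 h over 0 h 2 were higher and 5 lower by 2-fold or more, beside 17.7% and 27.3% of all genes. The median log2 ratio was -0.90 beside -0.21. With 10 genes such counts cannot be set apart from those shares. Bmp4, 1 of the 5 lower, was 2.66-fold lower by its brightest set and 3.60-fold higher by 93456_r_at. The 5 lower became 1 with median centring and 2 with quantile normalization, beside 18.4% and 21.1% of all genes. They became 3 with the mean over probe sets or the floor at the 60th percentile, beside 24.3% and 23.9%. Msx1, a homeobox factor of palate mesenchyme, had 290 at 0 h, 83.9 at 12 h and 64.3 at 24 h, 3.45-fold and 4.51-fold below 0 h. Ccnd1, a D-type cyclin, had 149, 55.8 and 117 by its brightest set, with 12 h lowest, and 46.4, 32.5 and 24.1 by the other. Foxd1, a forkhead factor, had 47.7, 112 and 66.2 with 12 h highest. Fgfr2, the epithelial receptor for the mesenchymal ligand Fgf10, had 317, 207 and 199 by its brightest set, within 2-fold, while Fgf10 itself was under the floor on all 3 arrays. By another set of Fgfr2, 93091_s_at, 12 h was under the floor and at least 4.99-fold lower than 0 h.

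**Figure D4:**
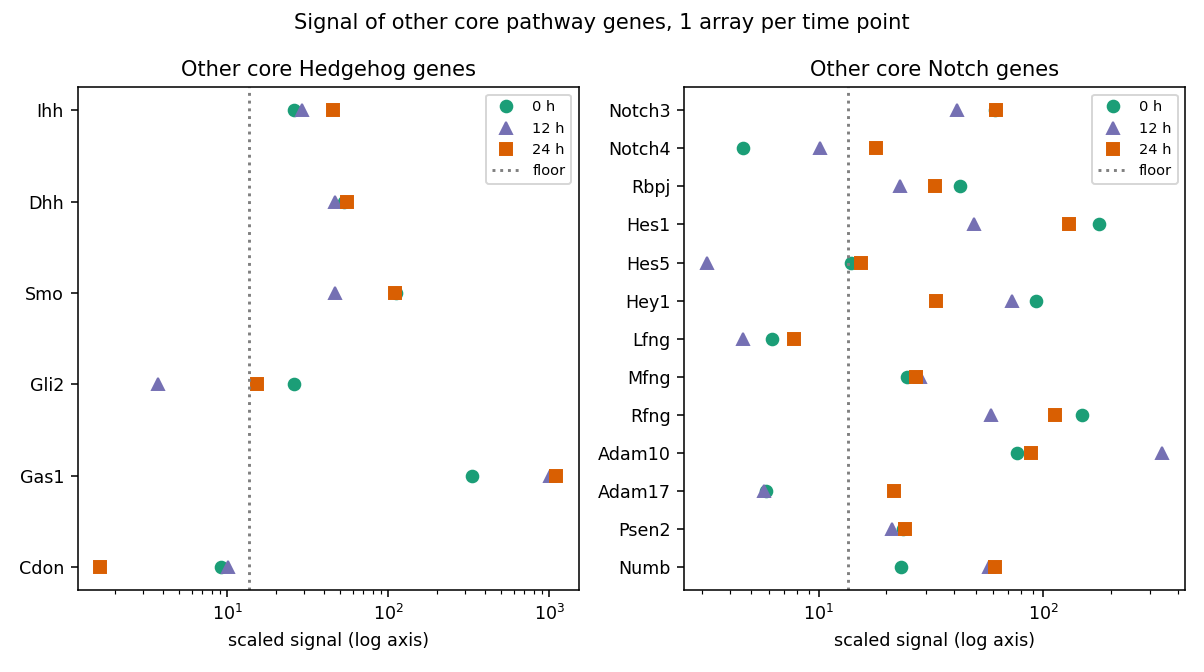
Scaled signal (log axis) of the other core Hedgehog genes (left) and core Notch genes (right) by their brightest probe set at 0 h (circles), 12 h (triangles) and 24 h (squares), 1 array each, with the floor of 13.53 as a dotted line. Smo, Hes1 and Rfng have their 12 h point to the left of the others, and Adam10 has it to the right.

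The core Notch list held 20 genes, of which 13 were on the array. Of 10 with a ratio at 12 h over 0 h, 2 were higher and 2 lower by 2-fold or more, beside 17.7% and 27.3% of all genes. The 2 lower became 5 with the deposited signals, beside 44.8% of all genes, and 1 with median centring, beside 18.4%. Among the receptors, Notch3 had 61.3, 41.3 and 61.4 at 0, 12 and 24 h and stayed within 2-fold. Notch4, known from endothelium, was under the floor at 0 h and 12 h and reached 18.0 at 24 h by its brightest set. Its other set, 93928_f_at, was under the floor on all 3 arrays. Of the enzymes that cut the receptor, Adam10 had 76.3, 340 and 88.1 by its brightest set, 4.46-fold above 0 h at 12 h and 3.86-fold lower at 24 h than at 12 h. Its other set, 100751_at, had 48.5, 4.58 and 2.17, at least 3.58-fold lower at 12 h than at 0 h. Adam10 thus also gave opposite directions at 12 h, as the sets of Ptch1 and Notch1 did. Adam17 was above the floor at 24 h alone, with a signal of 21.7, and Psen2, a catalytic subunit of gamma-secretase, stayed between 21.2 and 24.3.

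The readouts of Notch activity on the array were Hes and Hey genes, transcriptional repressors induced by the cut receptor. Hes1 had 178 at 0 h, 49.2 at 12 h and 131 at 24 h. It was 3.62-fold lower at 12 h than at 0 h and at 24 h stood 2.66-fold above its 12 h signal. At that second step Hes1 was the 1 of 12 core Notch genes at least 2-fold higher, and 2 were lower. Of all genes 18.8% were higher and 12.0% lower by that size. Hey1 had 92.8, 72.3 and 33.4, 2.17-fold lower at 24 h than at 12 h and 2.78-fold lower than at 0 h. The 2 targets thus had their lowest signal at different times, Hes1 at 12 h and Hey1 at 24 h. Hes5 was at 13.9 and 15.5 at 0 h and 24 h, just above the floor, and at 3.16 at 12 h by its brightest set. Its other set, 161051_at, had 12.3, 5.45 and 10.0 at 0, 12 and 24 h, under the floor on all 3 arrays. Rbpj, the DNA-binding partner of the cut receptor, had 42.6, 22.9 and 33.1 and stayed within 2-fold.

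Of the Fringe glycosyltransferases, which alter how Notch receptors answer their ligands, Rfng had 149, 58.6 and 113, 2.54-fold lower at 12 h than at 0 h. Mfng stayed between 24.8 and 28.1, and Lfng was under the floor on all 3 arrays. Numb, an inhibitor of Notch, had 23.1, 57.5 and 61.1 by its brightest set and 33.1, 78.6 and 27.8 by the other, so both were over 2-fold above 0 h at 12 h and they parted at 24 h. The core list's median log2 ratios were -0.26, 0.31 and 0.08 in the 3 comparisons.

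A further 19 measured genes were of the Notch pathway or linked to it, Hes factors, Dlk1, Dvl1 and Dvl2 among them. Of these, 18 had a ratio at 12 h over 0 h, 4 higher and 8 lower by 2-fold or more. Of all genes 17.7% were higher and 27.3% lower. The 8 lower included Dlk1, Hes6, Dvl1 and Dvl2. The 4 higher became 2 with the deposited signals, beside 9.06% of all genes. At 24 h over 12 h, 6 of 17 were higher and 2 lower by 2-fold or more, beside 18.8% and 12.0%. The 6 became 3 with the deposited signals and with the floor at the 60th percentile. Of all genes 12.0% and 14.9% were higher in those settings. The list had a median log2 ratio of 0.68 beside 0.17 over all genes. Dlk1, a Delta-like protein that lacks the receptor-activating domain, had 600 at 0 h, 120 at 12 h and 629 at 24 h, 5.02-fold lower at 12 h than at 0 h and back within 2-fold at 24 h. The corepressor Ctbp1 had 347, 82.9 and 205, with 12 h lowest. The deacetylase Hdac2 had 374, 1229 and 467, with 12 h highest. Furin, the protease that matures the Notch receptor, had 117, 259 and 312, 2.67-fold higher at 24 h than at 0 h.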

How the data were processed

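Per the labels' protocols, RNA of the isolated epithelium was amplified (RiboAmp), biotin-labelled (ENZO) and hybridized to 1-colour Affymetrix arrays. The labels name Microarray Suite 5.0 and GeneSpring 6.0 without saying which wrote the values. The deposited values are linear intensities, 1 per probe set, with no detection calls, and the labels state no scaling by the authors. Of 12422 probe sets other than controls, 10833 named 1 gene, and 10817 of these matched a RefSeq table (GRCm38.p6) by gene identifier.

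Arrays were scaled to the geometric mean of their 2% trimmed means, by factors of 0.676, 1.09 and 1.36 at 0, 12 and 24 h, and floored at the pooled 40th percentile (numpy 2.4.6, pandas 2.3.3). For each gene the probe set with the highest mean signal was used. A ratio with 1 array at the floor is a bound. Members were counted at 2-fold, since 1 array per time point, which limits the precision, allows no test. Members and lists were chosen with earlier results of these data known. Other genes named were all core genes on the array, up to 4 brightest genes of each other list and the nearest gene to each member. Keratins, further cell type markers, Fgf10 and Adam10's and other genes' second sets were named besides. The procedure was checked on simulated data without noise. Changes were planted only in genes well above the floor and alike in all probe sets of a gene. The check therefore does not bear on signals near the floor or on sets that disagree. Alternatives were other scalings, floors, probe set rules and a 3-fold rule; the other probe set of a gene was added after the data were seen.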

Additional observations from a re-analysis of the deposited data

How the results depend on the processing

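No paired analysis was possible because each time point has 1 array. Of 54 member counts under the alternatives, 35 stayed within 1.5 times the reported count and 19 did not. For 12 h over 0 h, the members at least 2-fold higher numbered 1 with the deposited signals, with quantile normalization and with the mean over probe sets, in place of 2, and those at least 2-fold lower 0 with the floor at the 60th percentile, in place of 3. For 24 h over 12 h, those higher numbered 1 with the deposited signals, median centring, quantile normalization and the floor at the 60th percentile, in place of 2, and those lower 0 with the mean over probe sets, in place of 2. For 24 h over 0 h, those higher numbered 2 with median centring, 3 with quantile normalization, and 1 with the floor at the 20th percentile and with no floor but a signal of 1, in place of 0, and those lower 0 with the floor at the 60th percentile, in place of 2. Under a 3-fold rule 1 member was higher and 1 lower at 12 h over 0 h, 1 and 1 at 24 h over 12 h, and 1 lower at 24 h over 0 h. Shares of all genes at least 2-fold higher also moved, given here in the order of the settings above. At 12 h over 0 h they were 9.06%, 22.1% and 14.1%. At 24 h over 12 h they were 12.0%, 13.0%, 14.6% and 14.9%. At 24 h over 0 h they were 17.7%, 16.9%, 16.9% and 17.9%. Shares lower were 23.9% and 14.9% at 12 h and 24 h over 0 h with the higher floor. The share lower was 9.71% at 24 h over 12 h with the mean over probe sets. The stricter rule itself removes calls, and the higher floor removes genes with a ratio. For the other differences the cause was not tested. Of 486 counts of the other lists under the alternatives, 137 moved by more than 1.5 times.

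The log2 ratio of Ptch1 for 12 h over 0 h turned to -0.40 with the mean over its probe sets. Taking the other probe set, a choice made after seeing the data, turned Ptch1 to -2.02 for 12 h over 0 h and to 0.85 for 24 h over 12 h, Notch1 to 0.85 and -0.13, and Notch2 to 0.18 for 24 h over 12 h. Of 157 member ratios under the alternatives, 140 moved by less than the SD between probe sets of 1 gene, 11 by more, and 6 of at least 2-fold, the ones just given, changed sign. The 140 are no measure of robustness. The deposited signals shift every ratio measured on both arrays by 1 amount, which is smaller than that SD. Leaving out sets with a suffix before _at could change no member, since no brightest member set has one. The mean over probe sets could not change genes with 1 set. A further 7 ratios under 2-fold also changed sign, 13 in all: Shh for 12 h over 0 h with median centring and quantile normalization (0.36 and 0.34), Dll1 for 24 h over 12 h with the same settings (-0.04 and -0.03), and Shh, Notch1 and Notch2 for 24 h over 0 h with the deposited signals (-0.02, -0.10 and -0.20). Signals near the floor (Shh, Dll1, Gli3 at 12 h) limit what their ratios can show.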

Other observations

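Among the 687 genes with several measured probe sets at 24 h over 12 h, 12 had a gap between sets at least as large as that of Ptch1, which is 1.75% of them, and 23 a gap at least as large as that of Notch1 (3.35%). At 12 h over 0 h, 56 of 672 genes (8.33%) had a gap at least as large as that of Ptch1, and 64 genes (9.52%) had 1 set at least 2-fold higher and another at least 2-fold lower. At 24 h over 0 h the gap of Notch1 was among the small ones, with 90.4% of 748 genes having one at least as large. Which transcripts the 2 sets of each gene detect was not given in the sources used here.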
